A study of Arabidopsis thaliana with 12 samples.

Results

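The genotype by age interaction in developing Arabidopsis thaliana seeds asks, for each gene, whether the difference between abi3-6 and wild type moved between 12 and 16 days after flowering (DAF). It was taken per probe set as the genotype difference at 16 DAF minus the genotype difference at 12 DAF, over all 12 arrays of the study. The groups were seeds of homozygous abi3-6 plants at 12 DAF and at 16 DAF, and Col-0 wild-type seeds at 12 DAF and at 16 DAF, with 3 arrays each. All plants were grown in long days. Each array held seeds from its own batch of plants, taken out of the siliques and pooled whole, so embryo, endosperm and seed coat were measured together. Fewer cells of a type and less RNA per cell cannot be told apart in such samples. Of 22746 probe sets other than controls, 14873 were bright enough to be tested. Values were on the log2 scale, where 1 unit is a 2-fold difference. A positive interaction means that abi3-6 moved up relative to wild type between the ages, and a negative one that it moved down. Interactions are given as log2 values ± their standard error (n = 3 arrays per group), with limma's p adjusted over all probe sets tested.

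ABI3 is a transcription factor with a B3 DNA-binding domain that acts late in seed development. During this phase the embryo fills with storage protein and oil, gains proteins that protect it during drying, and loses its chlorophyll. Seeds that lack ABI3 function are known to stay green, to die on drying and to start seedling-like programmes early. The annotation used here pairs no probe set with ABI3 alone, so the level of the mutated gene is not reported here, and the labels rest on the plants' genotype.

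Within groups, arrays correlated at 0.990 or more. Array medians were 4.41 to 4.45 in abi3-6 and 4.27 to 4.34 in wild type at 12 DAF. At 16 DAF they were 4.43 to 4.46 in abi3-6 and 4.05 to 4.10 in wild type. The medians thus differed along the interaction itself, in the positive direction. The third abi3-6 array at 16 DAF stood apart from the other arrays of its group for several genes described below, and its estimated array weight was the lowest of the 12 (0.480, against up to 2.24 elsewhere). The scanned files of the 16 DAF arrays share a naming prefix that those at 12 DAF lack, so age and array handling cannot be told apart. The wild-type arrays at 12 DAF are also numbered in a form of their own in the sample titles. If they came from a separate set, set and genotype cannot be told apart at 12 DAF, and the interaction would carry that difference. Differences between 3′ and 5′ probe sets of the actin and GAPDH controls, a sign of RNA integrity, had interactions between -0.16 and 0.26 over 4 control pairs, and their part in the results was not tested. Storage globulins averaged 11.08 to 11.28 in abi3-6 and 11.64 to 11.83 in wild type at 12 DAF, so these defining seed genes were abundant in both genotypes.

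The interaction passed the threshold (limma, Benjamini-Hochberg adjusted p under 0.05) for 5971 of the 14873 probe sets, or 40.1%. It was positive for 3155 (21.2%) and negative for 2816 (18.9%), and its size reached 1 log2 unit for 3754 and 3 log2 units for 330. After centring each array on its median, 2361 were positive and 4149 negative. For 5218 of the 5971 (35.1% of those tested) the range of the 9 possible array differences at 16 DAF did not overlap that at 12 DAF. Such separation held for 37.2% of the probe sets tested whatever their p. The genotypes were further apart at the later age: the median size of the difference was 0.46 log2 units at 12 DAF and 0.77 at 16 DAF, and differences of at least 3 log2 units numbered 391 at 12 DAF and 1054 at 16 DAF. Differences at the 2 ages, which share no arrays, had a Pearson r of 0.77 across the 14873 probe sets, given as a description because probe sets are not independent. Of the probe sets past the threshold, 3139 belonged to 1 named gene.

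Most of these probe sets diverged, meaning that abi3-6 was further from wild type at 16 DAF than at 12 DAF. Diverging probe sets numbered 4576 (30.8%), of which 2023 (13.6%) were lower and 2553 (17.2%) higher in abi3-6 at 16 DAF. At 12 DAF the genotype difference had not yet passed for 1147 of the lower and 1239 of the higher ones. Converging probe sets, where abi3-6 came closer to wild type, numbered 971 (6.53%), with 413 (2.78%) lower and 558 (3.75%) higher in abi3-6 at 12 DAF. The difference at 16 DAF did not pass for 302 of the lower and 371 of the higher ones. Turned probe sets, with differences that passed at both ages in opposite directions, numbered 352 (2.37%). Among them 157 (1.06%) turned from lower to higher in abi3-6 and 195 (1.31%) from higher to lower, and 72 (0.484%) past the threshold met none of these definitions.

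**Figure D1:**
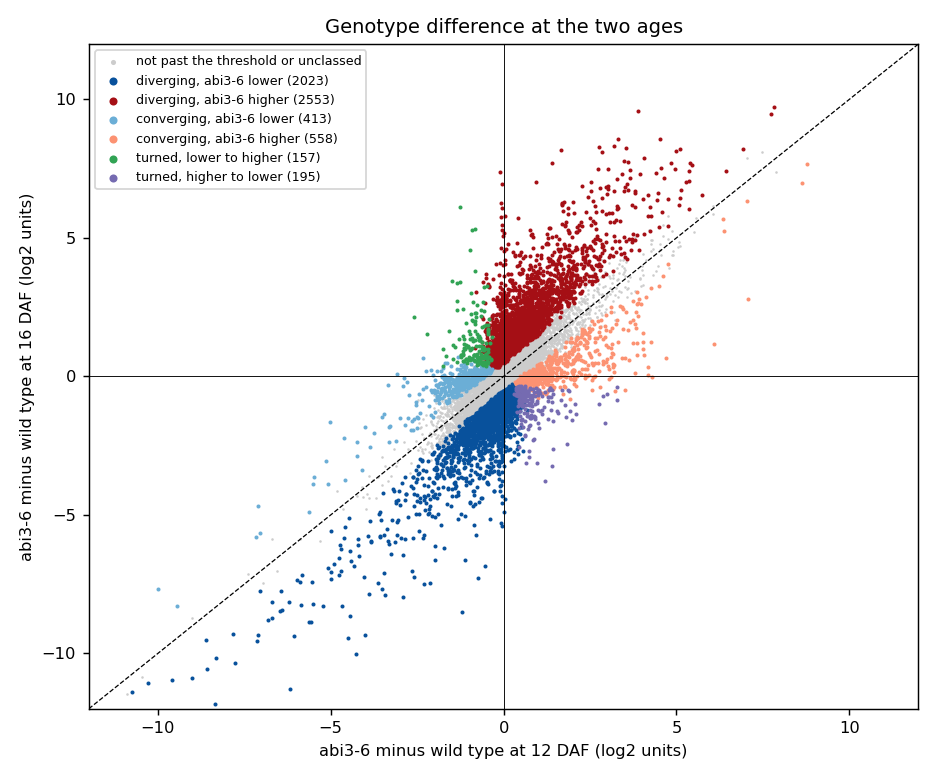
Genotype difference (abi3-6 minus wild type, log2 units) at 12 DAF (x axis) and 16 DAF (y axis), one point per probe set, coloured by class, with the diagonal of equal differences dashed. The 4576 diverging points lie further from 0 on the y axis than on the x axis, the 971 converging points closer, and the 352 turned points sit to the upper left and lower right of the origin.

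The classes differed in which genotype changed with age. Among the 2023 probe sets that diverged lower, abi3-6 alone fell for 280, the wild type alone rose for 1023, both genotypes rose for 363, and for 177 abi3-6 fell while the wild type rose. Among the 2553 that diverged higher, abi3-6 alone rose for 667, the wild type alone fell for 900, both fell for 557, and for 292 abi3-6 rose while the wild type fell. Of the 157 that turned from lower to higher, 54 fell in the wild type alone, 47 rose in abi3-6 and fell in wild type, and 45 fell in both. Of the 195 that turned from higher to lower, 70 rose in both genotypes and 66 in the wild type alone. Over all classes, abi3-6 and wild type moved in opposite directions for 579 probe sets.

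**Figure D2:**
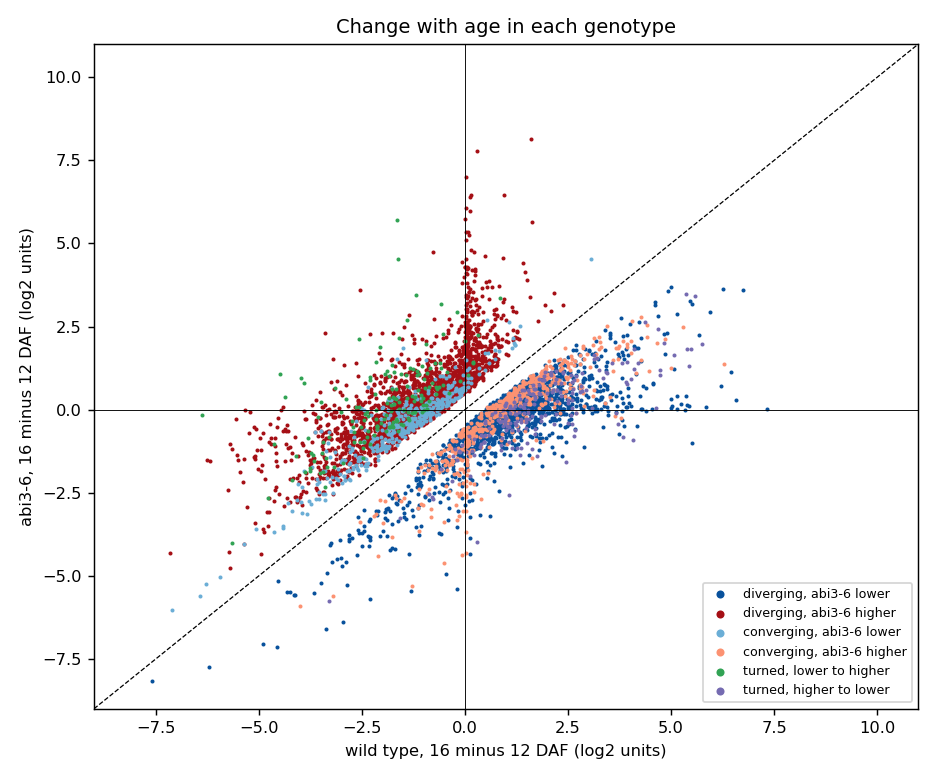
Change between 12 and 16 DAF (16 minus 12 DAF, log2 units) in abi3-6 (y axis) and in wild type (x axis) for the classed probe sets past the interaction threshold, coloured by class, with the diagonal of equal changes dashed. Many diverging higher points lie near the horizontal zero line, where wild type alone fell (900), or the vertical one, where abi3-6 alone rose (667). Many diverging lower points lie near the horizontal one, where wild type alone rose (1023), or the vertical one, where abi3-6 alone fell (280). Others lie off both lines, among them 557 diverging higher that fell in both genotypes and 363 diverging lower that rose in both.

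Genes of the maturation programme mostly diverged downwards. Late embryogenesis abundant (LEA) proteins are hydrophilic proteins that protect cells during drying. Of 31 measured, 17 had a negative and 6 a positive interaction, and 15 diverged lower. Over all probe sets tested, 18.9% were negative, 21.2% positive and 13.6% diverged lower, and these shares apply to the lists below too. The median interaction was -1.33 against -0.01 over all probe sets tested. The median change with age over the list was 0.08 in abi3-6 and 0.80 in wild type. AT3G22490 at 12 DAF read 2.25, 2.24 and 2.25 in abi3-6 and 6.98, 6.29 and 6.25 in wild type. By 16 DAF AT3G22490 read 2.28, 2.26 and 2.43 in abi3-6 and 12.43, 12.25 and 12.40 in wild type. Both abi3-6 groups lay under the dim limit (the 40th percentile of all values, 3.16), so only the wild-type rise of 5.85 was measured and the interaction of -5.77 ± 0.25 has no firm size (adjusted p = 3.55e-09). M17, another LEA protein, rose by 6.45 in wild type, and because abi3-6 at 12 DAF lay under the limit its interaction of -5.33 ± 0.60 (adjusted p = 1.47e-05) has no firm size either. AT4G36600, whose function the annotation used does not name, had at least 1 array above the limit in each group and read 3.05, 2.97 and 3.57 in abi3-6 and 7.53, 7.78 and 7.76 in wild type at 12 DAF. At 16 DAF AT4G36600 read 3.12, 3.43 and 3.19 in abi3-6 and 12.80, 12.42 and 12.81 in wild type. The abi3-6 arrays of AT4G36600 stayed near the limit at both ages while wild type rose by 4.99, and its interaction was -4.94 ± 0.25 (adjusted p = 1.28e-08).

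Not all LEA genes diverged. LEA18 was lower in abi3-6 (difference -4.09) at 12 DAF, rose by 2.26 in abi3-6 and 2.17 in wild type, and its interaction of 0.09 ± 0.18 did not pass (adjusted p = 0.722). AT1G54410, a dehydrin, went the other way and diverged higher, with differences of 1.31 at 12 DAF and 5.35 at 16 DAF and an interaction of 4.04 ± 0.26 (adjusted p = 9.96e-08). The dehydrins COR47 and LTI30, both known from cold and drought responses, turned in opposite directions. COR47 at 12 DAF read 5.48, 5.87 and 6.02 in abi3-6 and 6.80, 7.33 and 7.03 in wild type. At 16 DAF COR47 read 7.51, 7.59 and 8.61 in abi3-6 and 4.93, 4.71 and 3.80 in wild type. The genotypes did not overlap at either age, COR47 being lower in abi3-6 first and higher later, with an interaction of 4.68 ± 0.45 (adjusted p = 3.41e-06). LTI30 had a difference of 1.11 at 12 DAF and -0.71 at 16 DAF, with an interaction of -1.82 ± 0.21 (adjusted p = 1.78e-05). The change of -0.20 in abi3-6 did not pass, whereas LTI30 rose by 1.62 in wild type.

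Oil body and storage protein genes also diverged lower, and here most of the movement was in abi3-6. Oleosins coat the oil droplets of seeds, and all 4 measured oil body genes had a negative interaction, with a median of -3.15. The median change with age was -4.34 in abi3-6 and -0.31 in wild type. AT3G18570, an oleosin family locus, read 9.78, 9.50 and 9.38 in abi3-6 and 12.02, 11.63 and 11.93 in wild type at 12 DAF. At 16 DAF AT3G18570 read 4.92, 4.82 and 2.77 in abi3-6 and 11.81, 11.56 and 11.61 in wild type. All abi3-6 arrays were below all wild-type arrays at both ages, and the interaction was -5.18 ± 0.58 (adjusted p = 1.33e-05). OLEO3 fell in both genotypes, by 6.39 log2 units in abi3-6 and 2.97 in wild type, with an interaction of -3.42 ± 0.45 (adjusted p = 4.96e-05). AT3G01570 fell by 3.30 log2 units in abi3-6, and its change of -0.42 in wild type did not pass (interaction -2.88 ± 0.39, adjusted p = 6.49e-05). The fourth, AT2G25890, was under the limit in abi3-6 at both ages, where only bounds of -9.35 at 12 DAF and -9.93 at 16 DAF, or lower, can be given for the difference. Its negative call (adjusted p = 0.00465) therefore rests on the wild-type rise of 0.58.

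Seed storage proteins supply nitrogen to the seedling. Of 6 measured storage globulin type genes, 4 had a negative interaction and 0 a positive one, with a median of -1.79. AT1G03890 at 12 DAF read 12.38, 12.41 and 12.44 in abi3-6 and 14.45, 14.43 and 14.34 in wild type. At 16 DAF AT1G03890 read 9.64, 9.27 and 7.17 in abi3-6 and 13.67, 13.86 and 13.79 in wild type. AT1G03890 was still abundant in abi3-6 at 12 DAF and lower on all 3 arrays at 16 DAF, by the most on the third, and its interaction was -3.09 ± 0.62 (adjusted p = 0.00132). AT2G28490 had an interaction of -2.59 ± 0.31 (adjusted p = 2.63e-05), and AT4G36700, which did not differ detectably between genotypes at 12 DAF (-0.12), had -2.51 ± 0.59 (adjusted p = 0.00406). The third abi3-6 array at 16 DAF was the lowest of its group for both lists, averaging 8.32 against 9.26 and 9.32 for storage genes and 4.34 against 5.71 and 5.44 for oil body genes. Without that array the same numbers of genes passed, and the medians were -1.37 for storage and -2.68 for oil body genes. BETA-VPE, a vacuolar processing enzyme that matures storage proteins, diverged lower too, with differences of -1.36 at 12 DAF and -2.63 at 16 DAF (interaction -1.27 ± 0.32, adjusted p = 0.00597).

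Small heat shock proteins, chaperones that also accumulate in maturing seeds, diverged through a wild-type rise that abi3-6 did not share. Of 10 measured, 8 had a negative interaction and 1 a positive one, with a median of -3.26. Their median change with age was 0.18 in abi3-6 and 3.68 in wild type. AT1G52560 at 12 DAF read 5.73, 5.52 and 5.08 in abi3-6 and 6.66, 6.31 and 5.58 in wild type. At 16 DAF AT1G52560 read 4.69, 4.42 and 4.20 in abi3-6 and 11.72, 11.71 and 11.66 in wild type. The genotypes overlapped at 12 DAF and were far apart at 16 DAF, and the interaction of -6.52 ± 0.34 was the largest among diverging lower genes measured in every group (adjusted p = 1.56e-08). AT1G53540 rose by 5.42 in wild type and stayed under the limit in abi3-6. AT4G21870 was the exception and diverged higher from values near the limit, with an interaction of at least 1.18 (fitted 1.41 ± 0.38, adjusted p = 0.00963).

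Other chaperones were mixed, with 4 of 8 negative and 1 positive, beside 18.9% and 21.2% over all probe sets tested. The co-chaperones Hop3 and Fes1A, which work with Hsp90 and Hsp70, had interactions of -2.95 ± 0.22 (adjusted p = 3.25e-07) and -2.26 ± 0.27 (adjusted p = 2.24e-05). Their relative Fes1B rose by 2.29 in abi3-6 and stayed under the limit in wild type at both ages (interaction 2.24 ± 0.19, of no firm size, adjusted p = 1.28e-06). Hop1 and Fes1C did not pass, with interactions of 0.19 and 0.23. CRT1b, a calreticulin that folds glycoproteins in the endoplasmic reticulum, fell by 2.63 log2 units in wild type and diverged higher (interaction 2.50 ± 0.24, adjusted p = 3.58e-06).

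**Figure D3:**
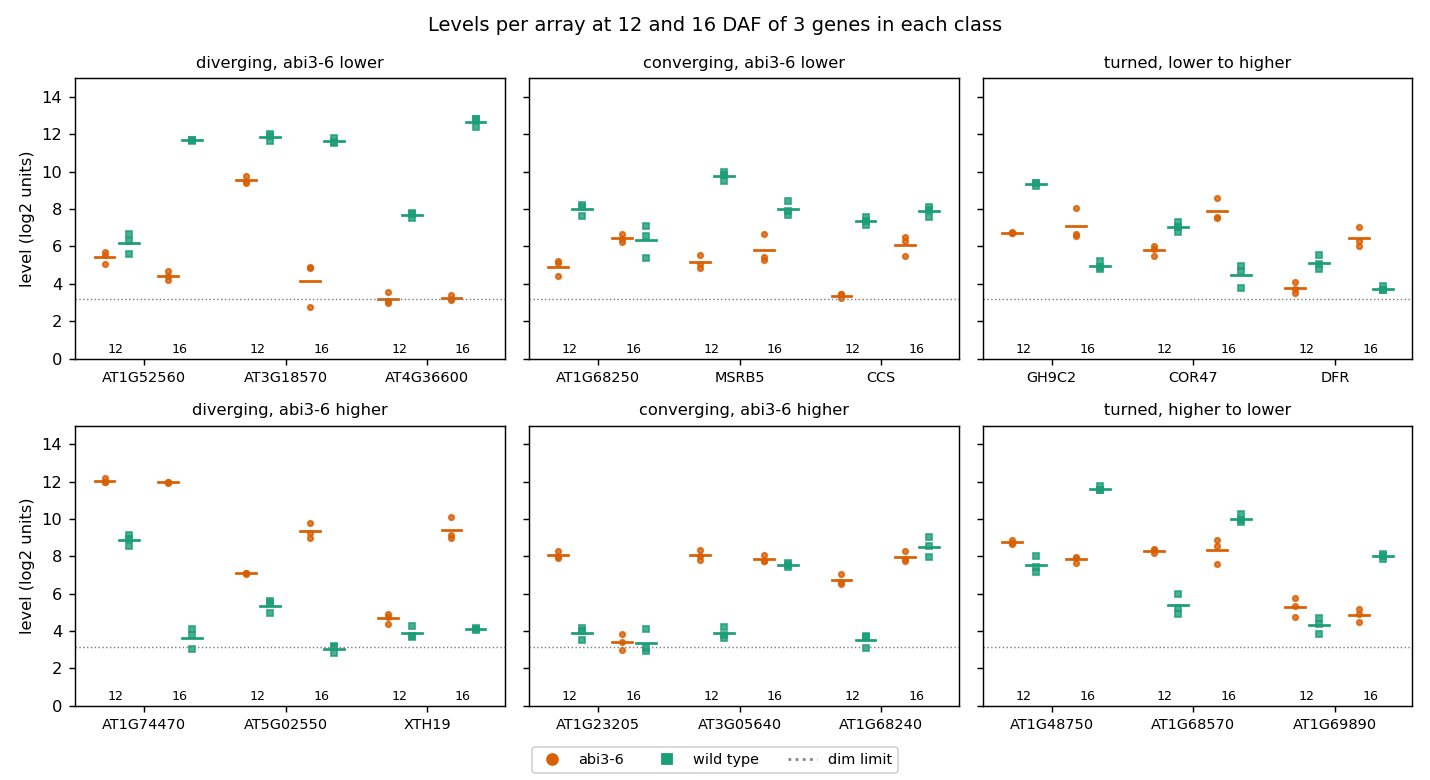
Levels (log2 units, y axis) on each array for the 3 genes of each class with the largest interaction among those measured in all groups, at 12 and 16 DAF, with abi3-6 (circles) left of wild type (squares), bars at group means and the dim limit dotted. In the diverging panels the genotypes are further apart at 16 DAF, in the converging panels closer, and in the turned panels they change places.

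Other genes that diverged lower rose in wild type as well. SWEET6, a sugar transporter, read 2.64, 2.64 and 2.64 in abi3-6 and 6.72, 5.99 and 5.59 in wild type at 12 DAF. At 16 DAF SWEET6 read 3.07, 2.71 and 2.74 in abi3-6 and 10.13, 9.71 and 9.94 in wild type. SWEET6 lay under the limit in abi3-6 at both ages, and its interaction of -3.63 ± 0.33 has no firm size (adjusted p = 2.08e-06). Of 11 measured sugar transporters, 3 had a negative interaction, 2 a positive one and 6 did not pass. The gibberellin receptors GID1A and GID1C, the 2 measured genes of the gibberellin list, did not differ detectably at 12 DAF and were lower in abi3-6 at 16 DAF. GID1A rose by 0.54 in abi3-6 and 2.51 in wild type, with an interaction of -1.98 ± 0.24 (adjusted p = 2.48e-05), and GID1C had -1.37 ± 0.25 (adjusted p = 6.46e-04). ATG8H, a ubiquitin-like protein of autophagy, fell by 0.76 log2 units in abi3-6 and rose by 1.08 in wild type (interaction -1.85 ± 0.21, adjusted p = 1.54e-05). Of 12 measured senescence and autophagy genes, 3 had a negative interaction, 1 a positive one and 8 did not pass. AT2G34740, whose function the annotation used does not name, was under the limit in abi3-6 at both ages and rose by 7.33 in wild type.

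Nuclear genes of photosynthesis diverged upwards, and here mainly the wild type moved. Of 7 measured photosystem and antenna subunits, 5 had a positive interaction and 0 a negative one, with a median of 1.67, and all 5 diverged higher. After centring each array on its median or with array weights, 1 of the others had a negative interaction. Over the list, the median change with age was -0.57 in abi3-6 and -3.09 in wild type. PSBY, a photosystem II subunit, read 10.59, 10.60 and 10.57 in abi3-6 and 8.30, 8.86 and 8.52 in wild type at 12 DAF. At 16 DAF PSBY read 9.17, 9.10 and 9.06 in abi3-6 and 3.65, 3.21 and 2.77 in wild type. PSBY was higher in abi3-6 at both ages without overlap, fell in both genotypes and fell further in wild type, and its interaction was 3.87 ± 0.28 (adjusted p = 3.12e-07). The photosystem I subunit PSAE-1 had a change of -0.12 in abi3-6 that did not pass, fell by 3.25 log2 units in wild type, and its interaction was 3.13 ± 0.21 (adjusted p = 1.78e-07). PSAN, also of photosystem I, had 2.38 ± 0.20 (adjusted p = 1.18e-06), a bound of at least 2.05 once wild-type values at 16 DAF were raised to the limit. The antenna proteins LHCB4.1 and LHCB4.2 did not pass, with interactions of -0.44 and 0.39, although both were higher in abi3-6 at each age.

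Carbon fixation genes moved the same way. Among 5 measured genes of the Calvin cycle and plastid ATP synthase, 4 diverged higher. PRK, a kinase of the Calvin cycle, had an interaction of 3.08 ± 0.23 (adjusted p = 4.58e-07), at least 2.76 against the limit, and fell by 1.86 log2 units in abi3-6 and 4.94 in wild type. SBPASE, a phosphatase of the same cycle, had 3.02 ± 0.37 (adjusted p = 2.91e-05). ATPC1 and ATPC2 encode the gamma subunit of the plastid ATP synthase and went opposite ways. ATPC1 had an interaction of at least 2.16 (fitted 2.54 ± 0.21, adjusted p = 1.12e-06), whereas ATPC2 turned, with 0.61 at 12 DAF and -0.82 at 16 DAF (interaction -1.43 ± 0.24, adjusted p = 3.20e-04).

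Genes of chlorophyll synthesis differed among themselves. Of 8 measured, 3 diverged higher, beside 17.2% over all probe sets tested, and 5 did not pass. AT1G74470, geranylgeranyl reductase, which saturates the side chain of chlorophyll, read 12.17, 11.99 and 11.96 in abi3-6 and 8.53, 8.91 and 9.13 in wild type at 12 DAF. At 16 DAF AT1G74470 read 11.99, 11.99 and 11.90 in abi3-6 and 3.78, 3.03 and 4.10 in wild type. Its abi3-6 level did not change detectably with age while wild type fell by 5.22, and the interaction was 5.14 ± 0.32 (adjusted p = 9.31e-08). PORB, which reduces protochlorophyllide, rose by 0.93 in abi3-6 and fell by 1.23 log2 units in wild type to under the limit (interaction at least 1.54, fitted 2.16 ± 0.42, adjusted p = 0.00117). CHLI2, a magnesium chelatase subunit, rose by 1.68 in abi3-6 and lay under the limit in wild type. The 5 that did not pass, HEMA2, HEMB1, HEME1, HEME2 and CHLM, had interactions between 0.03 and 0.56.

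Plastid-encoded genes stood beside these with few calls. Of 69 measured, 5 had a positive interaction and 0 a negative one, with a median of 0.07, although their median difference was 0.71 at 12 DAF and 0.95 at 16 DAF. The largest, psaJ, had an interaction of 1.41 ± 0.27 (adjusted p = 9.55e-04). Centring each array on its median gave 2 positive and 6 negative calls, with a median of -0.17, so the direction of this list depended on the array scaling. The list of other thylakoid proteins was mixed, with 5 of 12 positive and 4 negative, or 3 and 5 after that centring. Matching by symbol can take in genes of other function. STN1, a telomere protein with a symbol like those of thylakoid kinases, had a negative call with 3 groups under the limit. TROL, which tethers ferredoxin reductase to the thylakoid, had 2.89 ± 0.37 (adjusted p = 3.63e-05), and CaS, a thylakoid calcium sensor, converged with -1.71 ± 0.26 (adjusted p = 1.61e-04).

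**Figure D4:**
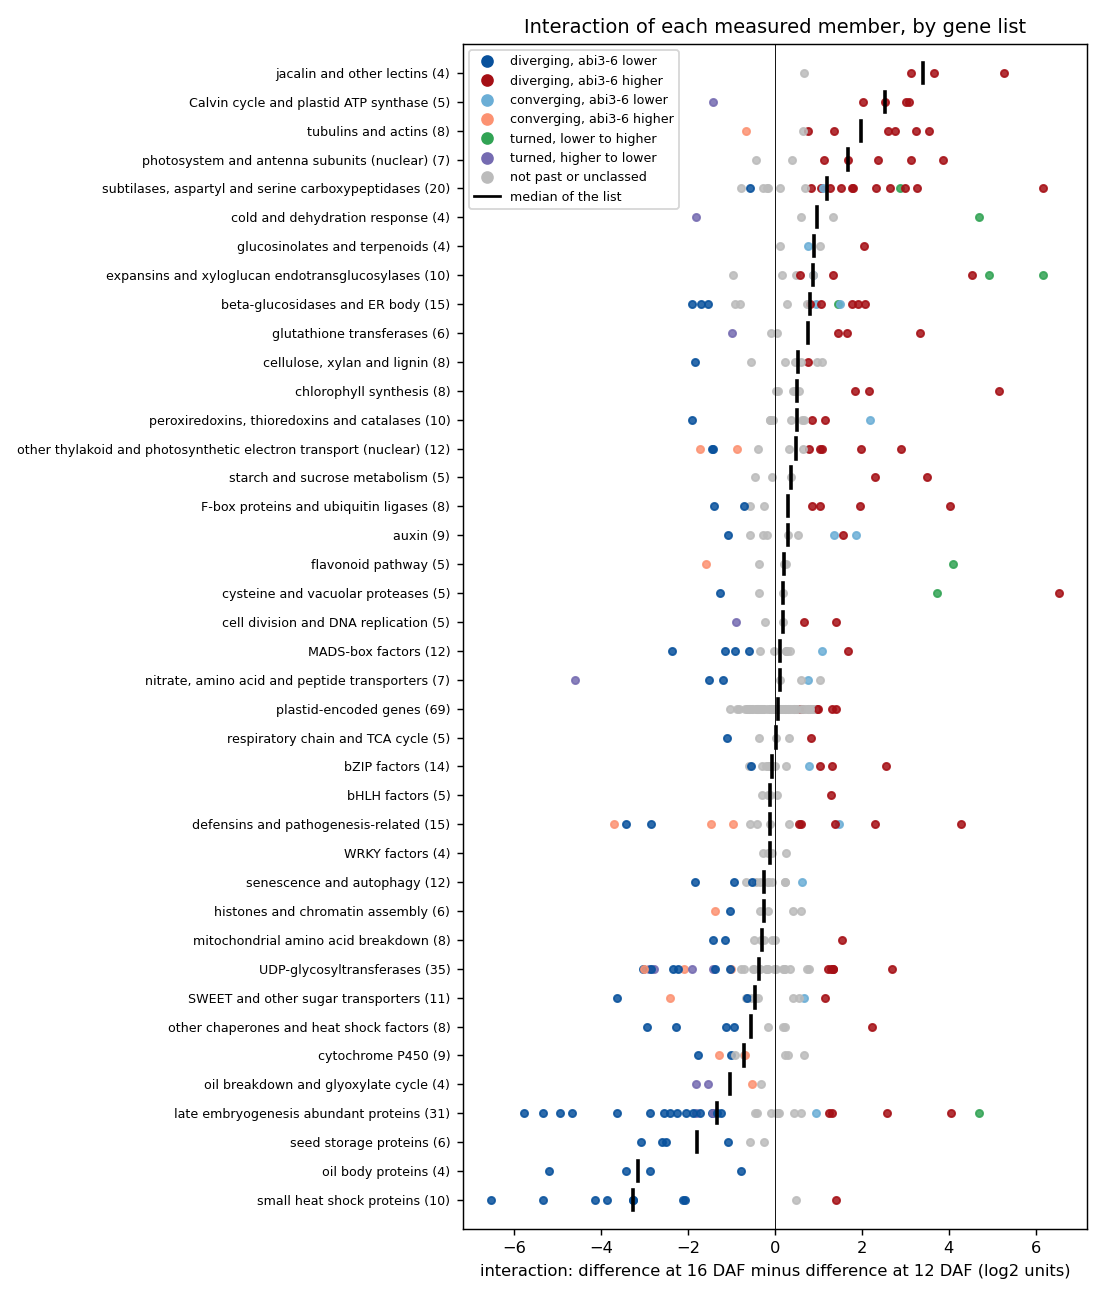
Interaction (log2 units, x axis) of each measured member of the gene lists with at least 4 measured members (number in brackets), coloured by class, with the list median as a bar and lists in order of their median. Small heat shock, oil body, storage and LEA proteins lie lowest, and lectins, carbon fixation, tubulins and photosystem subunits highest.

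Tubulin genes also diverged upwards. Tubulins build the microtubules that divide cells and guide wall deposition, and of 8 tubulin and actin genes measured 6 had a positive interaction and 1 a negative one, with a median of 1.97. TUA6 at 12 DAF read 10.29, 10.18 and 10.36 in abi3-6 and 8.80, 8.71 and 8.77 in wild type. At 16 DAF TUA6 read 10.36, 10.21 and 10.66 in abi3-6 and 5.65, 6.03 and 4.38 in wild type. TUA6 did not change detectably in abi3-6 and fell by 3.40 log2 units in wild type, and its interaction was 3.54 ± 0.43 (adjusted p = 2.63e-05). TUB6 moved likewise with 3.25 ± 0.22 (adjusted p = 1.58e-07), while TUB5 rose by 2.02 in abi3-6 (interaction at least 2.18 against the limit, fitted 2.76 ± 0.33, adjusted p = 2.10e-05). TUA1 converged, with -0.67 ± 0.22 (adjusted p = 0.0268), a call lost when any of 3 arrays was left out: the third abi3-6 array at 12 DAF, the third at 16 DAF, or the third wild-type array at 12 DAF.

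Expansins loosen cell walls and xyloglucan endotransglucosylases (XTH) cut and rejoin wall polymers. Of 10 measured, 6 had a positive interaction and 0 a negative one (3 diverged higher, 2 turned and 1 converged), or 4 and 1 after centring each array on its median. XTH19 at 12 DAF read 4.75, 4.89 and 4.37 in abi3-6 and 3.74, 4.27 and 3.69 in wild type. At 16 DAF XTH19 read 8.97, 9.13 and 10.13 in abi3-6 and 4.11, 4.06 and 4.17 in wild type. XTH19 rose by 4.74 in abi3-6 while its change of 0.22 in wild type did not pass, and its interaction was 4.52 ± 0.37 (adjusted p = 9.12e-07). The expansins EXPA9 and EXPA4 turned from lower to higher. EXPA9 at 12 DAF read 3.60, 3.46 and 3.46 in abi3-6 and 4.55, 3.82 and 4.64 in wild type. At 16 DAF EXPA9 read 7.87, 7.95 and 8.30 in abi3-6 and 2.81, 2.52 and 2.79 in wild type. EXPA9 in wild type was under the limit at 16 DAF, and against the limit its interaction was at least 5.71 (fitted 6.16 ± 0.28, adjusted p = 4.95e-09). EXPA4 had at least 3.82 (fitted 4.92 ± 0.35, adjusted p = 2.66e-07). Without the third abi3-6 array at 16 DAF 4 of the 10 passed. Other cell wall lists did not share this direction: of 8 measured cellulose, xylan and lignin genes 1 diverged higher, 1 diverged lower and 6 did not pass, and the 1 measured pectin enzyme diverged lower.

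Subtilases, aspartyl proteases and serine carboxypeptidase-like (SCPL) proteins mostly had positive interactions. Of 20 measured, 13 had a positive interaction and 1 a negative one, with a median of 1.19, and 11 diverged higher. The gene scpl20 at 12 DAF read 4.91, 4.25 and 4.87 in abi3-6 and 4.33, 5.33 and 4.55 in wild type. At 16 DAF scpl20 read 8.00, 8.03 and 8.82 in abi3-6 and 2.77, 1.89 and 1.90 in wild type. It did not differ detectably at 12 DAF, then rose by 3.61 in abi3-6 and fell by 2.54 in wild type to under the limit, which gives an interaction of at least 5.18 (fitted 6.15 ± 0.45, adjusted p = 3.12e-07). The gene scpl29 had 3.27 ± 0.38 (adjusted p = 1.79e-05). The single negative one, scpl31, had -0.57 ± 0.21 (adjusted p = 0.0462) and lost its call when any of 9 of the 12 arrays was left out. Cysteine and vacuolar proteases were mixed: of 5 measured, 2 had a positive interaction, 1 a negative one and 2 did not pass, with a median of 0.18. Their largest, the cysteine protease CP1, read 4.38, 3.97 and 4.90 in abi3-6 and 2.47, 3.10 and 2.71 in wild type at 12 DAF. At 16 DAF CP1 read 12.17, 12.49 and 13.00 in abi3-6 and 3.22, 4.97 and 4.90 in wild type. CP1 rose by 8.14 in abi3-6 and 1.60 in wild type, with a fitted interaction of 6.53 ± 0.56 (adjusted p = 1.42e-06) that has no firm size, since wild type lay under the limit at 12 DAF.

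Lectin genes diverged upwards through a rise in abi3-6. Jacalin lectins bind sugars and aggregate with the beta-glucosidases of the endoplasmic reticulum (ER) bodies. JAL33 at 12 DAF read 5.86, 6.05 and 6.06 in abi3-6 and 2.68, 2.72 and 2.68 in wild type. At 16 DAF JAL33 read 11.17, 11.22 and 11.61 in abi3-6 and 2.84, 2.75 and 2.75 in wild type. JAL33 was under the limit in wild type throughout and rose by 5.35 in abi3-6, as JAL34 did by 3.26 and JAL22 by 3.87. These were 3 of 4 lectins measured, and the fourth, EULS3, did not pass (interaction 0.67 ± 0.34). In the beta-glucosidase and ER body list, 8 of 15 had a positive and 3 a negative interaction, beside 21.2% and 18.9% over all probe sets tested. They numbered 5 and 5 after centring, and 5 and 3 without the third abi3-6 array at 16 DAF. PYK10, an abundant ER body beta-glucosidase, rose by 2.84 in abi3-6, but its interaction of 1.92 ± 0.71 (adjusted p = 0.0462) lost its call under 15 of 20 alternative settings, 11 of them with an array left out. Wild type was under the limit at 12 DAF, and the third wild-type array at 16 DAF read 5.22 against 2.55 and 2.53. Without that wild-type array the interaction of PYK10 was 2.81. BGLU19, a beta-glucosidase abundant in wild-type seeds, diverged lower with differences of -9.01 and -10.90.

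Starch genes APL3 and SBE2.2 diverged higher, 2 of 5 measured, beside 17.2% over all probe sets tested. Of the others, 1 was negative under some settings, centring among them. APL3, a large subunit of the enzyme that makes ADP-glucose, rose by 2.74 in abi3-6 and fell by 0.76 log2 units in wild type (interaction 3.50 ± 0.26, adjusted p = 4.11e-07). SBE2.2, a starch branching enzyme, had at least 2.26 (fitted 2.31 ± 0.23, adjusted p = 4.21e-06). AT5G26260, whose function the annotation used does not name, was under the limit in all groups but abi3-6 at 16 DAF, where it read 9.46, 9.54 and 10.21.

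**Figure D5:**
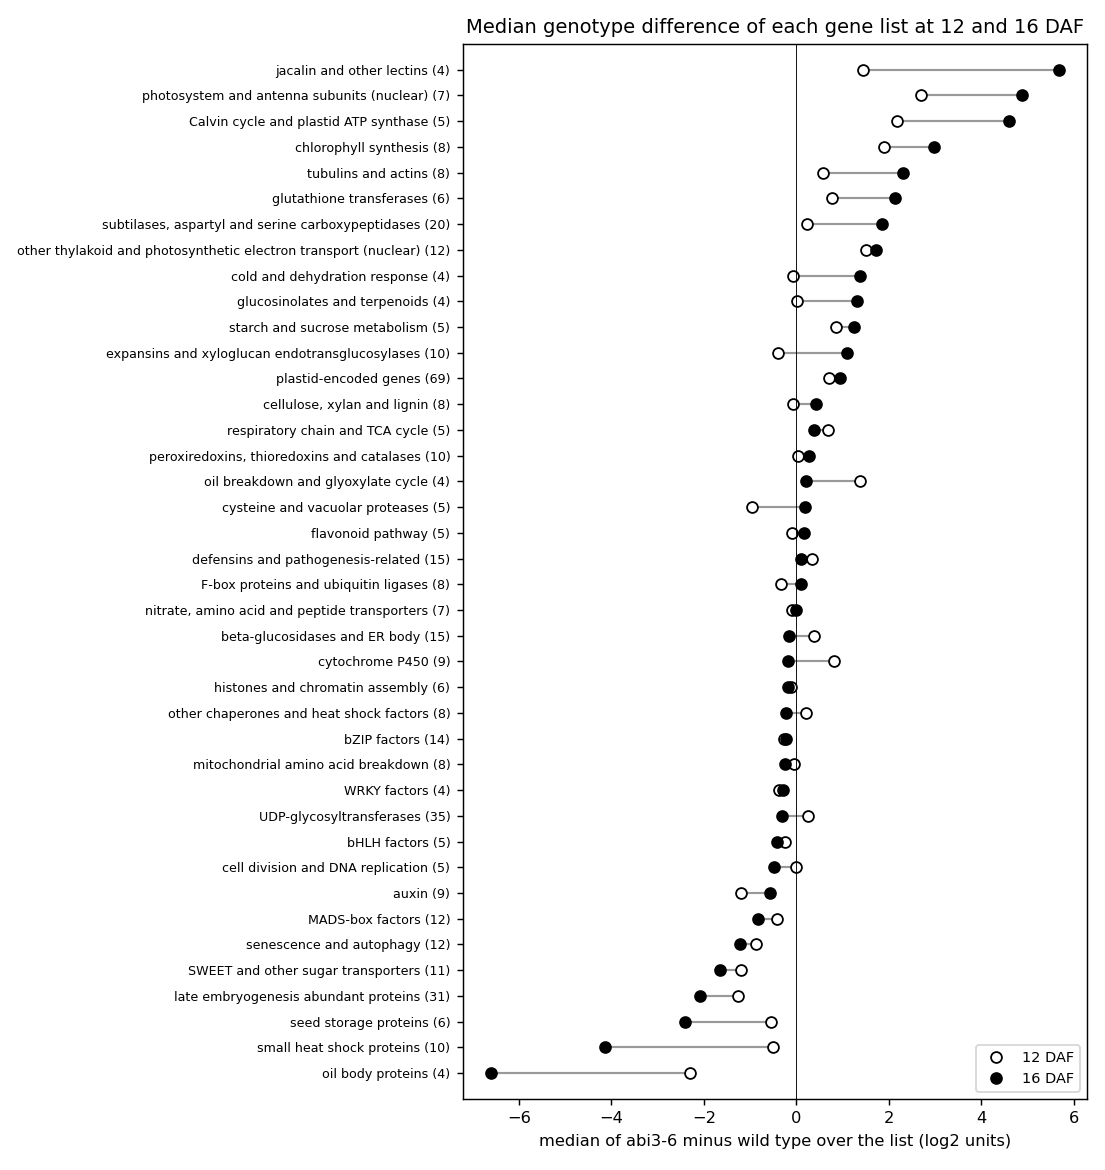
Median genotype difference (abi3-6 minus wild type, log2 units, x axis) over the measured members of each gene list at 12 DAF (open circles) and 16 DAF (filled circles), with the number of members in brackets. Oil body, small heat shock and storage proteins moved further below 0, photosystem, carbon fixation and lectin genes further above it, and the oil breakdown list moved towards 0, with medians of 1.37 at 12 DAF and 0.22 at 16 DAF.

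Convergence was less frequent and rested on different time courses. AT3G05640 at 12 DAF read 7.78, 8.34 and 8.04 in abi3-6 and 3.80, 4.20 and 3.61 in wild type. At 16 DAF AT3G05640 read 7.73, 8.06 and 7.75 in abi3-6 and 7.41, 7.51 and 7.64 in wild type. At 12 DAF abi3-6 was already at or above the later wild-type level, and wild type rose by 3.65 (interaction -3.86 ± 0.26, adjusted p = 1.49e-07). AT1G68240 rose in both genotypes and further in wild type, with differences of 3.21 at 12 DAF and -0.54 at 16 DAF. SWEET1, a sugar transporter, and HTB2, a histone H2B, were also caught up by wild type. SWEET1 rose by 2.31 in wild type to the abi3-6 level (interaction -2.40 ± 0.26, adjusted p = 1.13e-05), and HTB2 by 1.88 (interaction -1.39 ± 0.26, adjusted p = 9.18e-04).

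Other converging genes fell in abi3-6 from a higher level at 12 DAF. AT1G23205 at 12 DAF read 8.28, 7.94 and 7.92 in abi3-6 and 4.16, 3.49 and 3.97 in wild type. At 16 DAF AT1G23205 read 3.86, 3.40 and 3.00 in abi3-6 and 4.09, 2.94 and 3.09 in wild type. The genotypes overlapped at 16 DAF after a fall of 4.63 log2 units in abi3-6 (interaction -4.13 ± 0.41, adjusted p = 4.98e-06). AT5G61290 was above the limit in abi3-6 at 12 DAF alone. UGT74D1, a glycosyltransferase known to act on auxin, fell by 3.06 log2 units in abi3-6 and remained higher there at 16 DAF (interaction -3.02 ± 0.38, adjusted p = 3.47e-05).

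In genes that were lower in abi3-6 at 12 DAF, the gap narrowed from either side. MSRB5, a methionine sulfoxide reductase that repairs oxidised proteins, fell by 1.76 log2 units in wild type (interaction 2.40 ± 0.46, adjusted p = 0.001). CCS, the copper chaperone of superoxide dismutase, rose by 2.71 in abi3-6 (interaction 2.19 ± 0.33, adjusted p = 1.72e-04). CCS nevertheless read 5.47, 6.28 and 6.48 in abi3-6 and 7.55, 8.14 and 7.97 in wild type at 16 DAF, without overlap. AT3G60730 fell by 2.65 in wild type and was under the limit in abi3-6 at both ages, so its abi3-6 level was not measured. AT1G68250 no longer differed detectably at the later age, with a difference of -3.08 at 12 DAF and 0.09 at 16 DAF.

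Of 4 measured oil breakdown genes, 2 turned from higher to lower, 1 converged and 1 did not pass. AIM1 and SDP1 act in seed oil use, AIM1 in the peroxisomal beta-oxidation of fatty acids and SDP1 as the lipase that starts it. AIM1 at 12 DAF read 10.51, 10.52 and 10.71 in abi3-6 and 8.98, 9.51 and 9.31 in wild type. At 16 DAF AIM1 read 10.23, 10.37 and 10.30 in abi3-6 and 10.66, 10.67 and 11.10 in wild type. AIM1 was higher in abi3-6 without overlap at 12 DAF and lower at 16 DAF, its change of -0.28 in abi3-6 did not pass, and it rose by 1.54 in wild type (interaction -1.82 ± 0.23, adjusted p = 3.88e-05). SDP1 read 9.04, 8.75 and 8.73 in abi3-6 and 7.65, 8.07 and 8.23 in wild type at 12 DAF. At 16 DAF SDP1 read 8.77, 9.17 and 8.55 in abi3-6 and 9.47, 9.37 and 9.68 in wild type. SDP1 changed places without overlap at either age, with an interaction of -1.53 ± 0.27 (adjusted p = 5.08e-04). ICL, isocitrate lyase of the glyoxylate cycle, rose in both genotypes and converged with -0.53 ± 0.19 (adjusted p = 0.0426), a call lost under 9 of 20 settings, 8 of them with an array left out. Without the third abi3-6 array at 16 DAF 2 of the 4 passed. SDP1-LIKE did not pass (-0.33 ± 0.33).

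Glycosyltransferases (UGT), which attach sugars to small molecules, included genes with the same turn. Of 35 measured, 13 had a negative and 5 a positive interaction, beside 18.9% and 21.2% over all probe sets tested. The median of the list was -0.37. UGT76E11, UGT76E12, UGT85A5 and UGT78D2 turned from higher to lower. UGT76E11 had differences of 1.57 at 12 DAF and -1.32 at 16 DAF (interaction -2.89 ± 0.26, adjusted p = 1.85e-06), and UGT76E12 of 1.54 and -1.25 (interaction -2.79 ± 0.35, adjusted p = 3.27e-05). Both rose in wild type, by 2.50 and 4.20. UGT76B1 diverged lower, being above the limit in wild type at 16 DAF alone, and UGT71B1 diverged higher with 2.68 ± 0.23 (adjusted p = 1.29e-06).

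The largest measured turns from higher to lower were AT1G48750, AT1G68570 and AT1G69890. AT1G48750 at 12 DAF read 8.64, 8.70 and 8.87 in abi3-6 and 8.02, 7.43 and 7.16 in wild type. At 16 DAF AT1G48750 read 7.95, 7.91 and 7.64 in abi3-6 and 11.76, 11.54 and 11.55 in wild type. The genotypes did not overlap at either age, abi3-6 fell by 0.90 while wild type rose by 4.08, and the interaction was -4.98 ± 0.27 (adjusted p = 2.16e-08). AT1G68570, a member of the nitrate and peptide transporter family, had differences of 2.93 and -1.67 (interaction -4.60 ± 0.43, adjusted p = 2.74e-06). AT1G69890, whose function the annotation used does not name, had an interaction of -4.12 ± 0.37 (adjusted p = 1.96e-06).

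In the opposite direction, GH9C2, an endoglucanase of the cell wall, read 6.78, 6.70 and 6.71 in abi3-6 and 9.22, 9.38 and 9.39 in wild type at 12 DAF. At 16 DAF GH9C2 read 6.67, 6.58 and 8.05 in abi3-6 and 5.20, 4.79 and 4.92 in wild type. GH9C2 fell by 4.36 log2 units in wild type below the abi3-6 level, which did not change detectably (interaction 4.73 ± 0.41, adjusted p = 1.57e-06). DELTA-VPE, a vacuolar processing enzyme known from cell death in the seed coat, turned likewise, with differences of -1.34 and 2.38 and a wild-type fall of 3.49 (interaction 3.72 ± 0.26, adjusted p = 2.47e-07). DFR, which makes precursors of seed coat tannins and anthocyanins, rose by 2.69 in abi3-6 and fell by 1.40 in wild type (interaction 4.09 ± 0.36, adjusted p = 1.54e-06). PHV, a homeodomain factor of leaf polarity, turned with 1.58 ± 0.25 (adjusted p = 1.92e-04).

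Markers of single tissues were also measured, and they are not independent of the genes above, since DFR is one of them. Of 3 measured seed coat markers, DFR and ARA12 had positive interactions and BAN, under the limit in both genotypes at 16 DAF, did not pass (0.25 ± 0.28). DFR had the largest, 4.09, and the median of the 3 was 0.94. Their mean level ranged from 5.66 to 5.93 in abi3-6 and 5.94 to 6.20 in wild type at 12 DAF, and from 6.59 to 7.07 in abi3-6 and 5.25 to 5.37 in wild type at 16 DAF. Both measured silique wall markers had positive interactions, 2.89 ± 0.25 for SPT (adjusted p = 1.61e-06) and 2.48 ± 0.41 for ALC (adjusted p = 3.38e-04). The mean of SPT and ALC ranged from 5.30 to 5.53 in abi3-6 and 5.61 to 6.25 in wild type at 12 DAF, and from 5.12 to 5.67 in abi3-6 and 3.20 to 3.51 in wild type at 16 DAF. The 2 endosperm markers with a probe set were too dim to be tested. The part of these tissues in the results was not tested.

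Among transcription factors, 5 of 14 measured bZIP genes passed, 4 with a positive and 1 with a negative interaction, beside 21.2% and 18.9% over all probe sets tested (3 and 0 without the third abi3-6 array at 16 DAF), and the largest was bZIP44, with 2.55 ± 0.25 (adjusted p = 4.30e-06) and a wild-type fall of 2.98. The single negative one, BZIP28 (-0.56 ± 0.20, adjusted p = 0.0425), lost its call under 9 of 20 settings, 7 of them with an array left out. Of 4 measured WRKY factors 0 passed with limma, also 0 at an unadjusted p under 0.05.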

How the data were processed

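Seed transcripts were measured on 1-colour Affymetrix arrays, 1 array per sample and 3 samples per group, from separate batches of plants per the labels. Each deposited value was taken to be log2 expression, from its range, as no label states the scale. GCOS 1.3 and GCRMA 2.0.0 stand in the submitters' processing notes without a stated role, and array centring is unknown. For arrays, the number of arrays limits the precision. Members, gene lists and tests were chosen with earlier results of these data known.

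Of 22810 probe sets, 64 controls were left out. The rest were tested where at least 3 of 12 arrays reached the dim limit, which was 3.16 log2 units (40th percentile over all probe sets and arrays), which kept 14873. A probe set was named where the platform annotation paired it with 1 gene: 13513 were, of which 13436 matched the TAIR10.1 gene table, used for names only. A gene with several probe sets was represented by the brightest. Lists were matched by symbol, synonym or locus. Some loci were placed in a list from general knowledge, not from the annotation used.

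A means model of 4 groups was fitted with limma 3.58.1 in R 4.3.3 (lmFit, eBayes, 8 residual and 5.41 prior degrees of freedom), two-sided, with Benjamini-Hochberg adjustment over the probe sets tested at 0.05. Errors are limma's moderated standard errors, from 1 variance per probe set shared by the 4 groups of 3 arrays. They do not show a spread that differs between groups. Diverging required a difference at 16 DAF that passed and was larger than at 12 DAF, converging one at 12 DAF that passed and was larger than at 16 DAF, each with no opposite difference that passed, and turned 2 that passed with opposite signs. A bound was the interaction with values under the dim limit raised to it, where 1 group lay wholly under it. The fit was tested on simulated data in which few probe sets held an interaction. It recovered 49 of 100 interactions of 1 log2 unit and 88 of 100 of 2 log2 units, with 13 false calls. Recovery in the measured data can differ, and an interaction that did not pass may still be present.

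Named genes were, per class, the 3 with the largest interaction among genes with at least 1 array above the dim limit in every group and the 2 largest with a group under the dim limit, then up to 3 per list, with markers. Other list members named were chosen after their values were seen. Summaries used pandas 2.3.3 and numpy 2.4.6 under Python 3.11.15, and plots matplotlib 3.10.9. Promoter sequences were not used here. Alternatives changed array scaling, dim filter, dim values, array weights, variance model, replicate block and arrays used.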

Additional observations from a re-analysis of the deposited data

Results flagged for a closer look

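For 26 genes among those named by rule and the members of the gene lists, the genotype difference passed at both ages with opposite signs, and the interaction is the test of that change (log2 units, limma, adjusted p under 0.05 for each). In 10 abi3-6 turned from lower to higher: EXPA9 with 6.16, EXPA4 with 4.92, GH9C2 with 4.73, COR47 with 4.68, DFR with 4.09, DELTA-VPE with 3.72, scpl48 with 2.87, ALC with 2.48, PHV with 1.58 and BGLU16 with 1.46. In 16 it turned from higher to lower. The larger of these were AT1G48750 with -4.98, AT1G68570 with -4.60, AT1G69890 with -4.12, UGT76E11 with -2.89, UGT76E12 with -2.79 and AT5G03700 with -2.25. The smaller were UGT85A5 with -1.90, AIM1 with -1.82, LTI30 with -1.82, AT4G36580 with -1.55, SDP1 with -1.53, ATPC2 with -1.43, UGT78D2 with -1.42, AT2G23120 with -1.42, GSTU16 with -0.99 and AUR2 with -0.89. For EXPA9, EXPA4 and AT4G36580 1 group lay under the dim limit, and raising dim values to the limit gave 5.71, 3.82 and -1.49. AT5G03700 was under the limit in both genotypes at 12 DAF, at 2.48, 3.03 and 3.01 in abi3-6 and 2.38, 2.30 and 2.29 in wild type, so its order at that age was not measured.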

How the results depend on the processing

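Leaving out each array in turn gave 5280 to 5721 probe sets past the interaction threshold, against 5971, and other settings 4990 to 6510. Centring each array on its median moved the median interaction to -0.25, against -0.01, and the positive share of calls to 36.3%, against 52.8%. Diverging lower then numbered 3205 and turned from higher to lower 294. Array medians were lowest in wild type at 16 DAF (4.05 to 4.10), and centring takes that difference out. Whether it came from the samples or from the arrays was not tested. Other counts of classes stayed within 1.5 times. Of 141 named genes, 140 passed the threshold. Among the 141, 124 kept their result, passing or not, under every one of up to 20 alternatives in which they were tested. Of the calls, 0 reversed. On the linear scale 451 of the 5971 interactions had the other sign. In all, 1079 included a group wholly under the dim limit. Groups of 3 arrays limit what small differences could show.

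With the replicate number as a block, 6002 probe sets passed. Samples sharing a number had correlations of deviations from -0.02 to 0.16 over 18 pairs, of which 3 were over 0.1. Samples with other numbers had -0.13 to 0.08, and 8 of 12 arrays correlated best with their own number. The range thus lay higher for a shared number, though all correlations were small. The reported fit did not pair samples by number, and the fit with the block allows for an effect shared by number. The block ended the call of BZIP28 among named genes.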

Other observations

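Genes of the defensin and pathogenesis-related list moved in both directions. Of 15 measured members, 6 had a positive and 5 a negative interaction, beside 21.2% and 18.9% over all probe sets tested. The list was matched by symbol and took in PDF1A and PDF1B, which passed but are peptide deformylases, not defensins. After centring each array on its median, 4 were positive and 6 negative. THI2.1, a thionin, was under the dim limit in every group but abi3-6 at 16 DAF, where it read 6.76, 6.40 and 7.58. THI2.2 was above it in abi3-6 at 12 DAF alone, at 5.96, 6.14 and 6.32. PDF1.2b, a defensin, rose by 2.25 in abi3-6 and 5.68 in wild type and diverged lower, with an interaction of -3.43 ± 0.22 (limma adjusted p = 9.31e-08).

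Detoxification genes also differed among themselves. Of 6 measured glutathione transferases, 3 diverged higher (17.2% over all probe sets tested) and GSTU16 turned from higher to lower (-0.99 ± 0.26, adjusted p = 0.00812). GSTU20 fell by 1.02 log2 units in abi3-6 and 4.35 in wild type, with an interaction of at least 2.55 (fitted 3.33 ± 0.30, adjusted p = 2.33e-06). PRXR1, a peroxidase, read 14.87, 14.76 and 14.93 in abi3-6 and 14.13, 13.72 and 14.04 in wild type at 12 DAF. At 16 DAF PRXR1 read 14.10, 14.10 and 13.67 in abi3-6 and 11.04, 11.16 and 10.48 in wild type, with an interaction of 2.17 ± 0.27 (adjusted p = 3.04e-05). Of 9 measured cytochrome P450 genes, 4 had a negative interaction and 0 a positive one, beside 18.9% and 21.2% over all probe sets tested. Without the third abi3-6 array at 16 DAF, 3 were negative and 1 positive. Of 12 measured MADS-box factors, 4 diverged lower (13.6% over all probe sets tested), 1 diverged higher and 1 converged. AGL94, one of the lower ones, was above the limit in wild type at 16 DAF alone. YUC4, an enzyme of auxin synthesis, was above it in wild type at 12 DAF alone, at 4.80, 4.10 and 4.78.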
